A study of Anoectochilus roxburghii with 9 samples.

Results

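The stepwise repressed genes were leaf transcripts that were lower under ArPHR2 overexpression than under an empty vector, and lower again under ArPHR4 overexpression. They numbered 168 of the 85512 assembled genes of Anoectochilus roxburghii, a terrestrial jewel orchid used in medicine. They were chosen from the counts themselves. CPM is a gene's count scaled to counts per 1000000 of its library, and each group is represented by the mean CPM of its 3 libraries. A member had an EV level of at least 5 and under 1000 CPM, an ArPHR2 level more than 1.5-fold but less than 3-fold below EV, and an ArPHR4 level at least 1.5-fold below ArPHR2. All 3 groups entered that choice, so the levels below describe the members and test nothing.

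The 9 mRNA-seq libraries came from leaves of wild-type plants, all labelled with transient overexpression and all taken at day 3. They formed 3 groups of 3, ArPHR4 overexpression, ArPHR2 overexpression and the empty vector control (EV). A deposited list of client names, not tied there to the GEO titles, gives 3 names each with ArPHR4-YFP, ArPHR2-YFP and PHB-YFP. YFP thus appears in all of these names, and no label ties any of them to the EV libraries. The promoter, the way of delivery and the share of leaf cells reached are not stated in the labels. Nor do they say if replicate libraries stand for different plants, so the spread between libraries may be technical. Total counts were 16032716 to 16757000 in ArPHR4, 16529182 to 17244083 in ArPHR2 and 16488391 to 16547194 in EV libraries. In bulk leaf RNA, fewer cells of a type and less RNA per cell cannot be told apart.

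PHR proteins are MYB-type transcription factors that, in Arabidopsis and rice, bind a short promoter element known as P1BS and switch on genes for phosphate uptake and recycling when phosphate is scarce. SPX proteins, which sense inositol pyrophosphates, hold them back when phosphate is plentiful. In Arabidopsis PHR activity also lowers part of the immune response, and in rice it promotes the symbiosis with mycorrhizal fungi, on which orchids depend. The deposited table identifies each gene by an assembly ID and pairs none of the IDs with a name, a function, a sequence or a position, so no member could be assigned to these pathways. Members are given by ID where a fixed rule named them and otherwise by their rank.

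Of the 85512 genes, 13686 had an EV level within the band of 5 to 1000 CPM. In 1056 of these the ArPHR2 level was in the window between 1.5-fold and 3-fold below EV, and 168 of the 1056 (15.9%) were at least 1.5-fold lower again in ArPHR4. Of the other 888 genes, 393 were lower in ArPHR4 than in ArPHR2 by less than 1.5-fold, 385 were equal or higher by less than 1.5-fold, and 110 were at least 1.5-fold higher. The second step was seen in 353 of 10855 genes (3.25%) whose ArPHR2 level lay within 1.5-fold of EV. It was seen in 41 of 171 genes (24.0%) whose ArPHR2 level was at least 3-fold below EV. The mirror rule, with both steps upward, held for 177 of 1481 genes (11.95%) raised 1.5-fold to 3-fold by ArPHR2. The ArPHR2 libraries enter both ratios, so these shares are given as counts only.

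**Figure D1:**
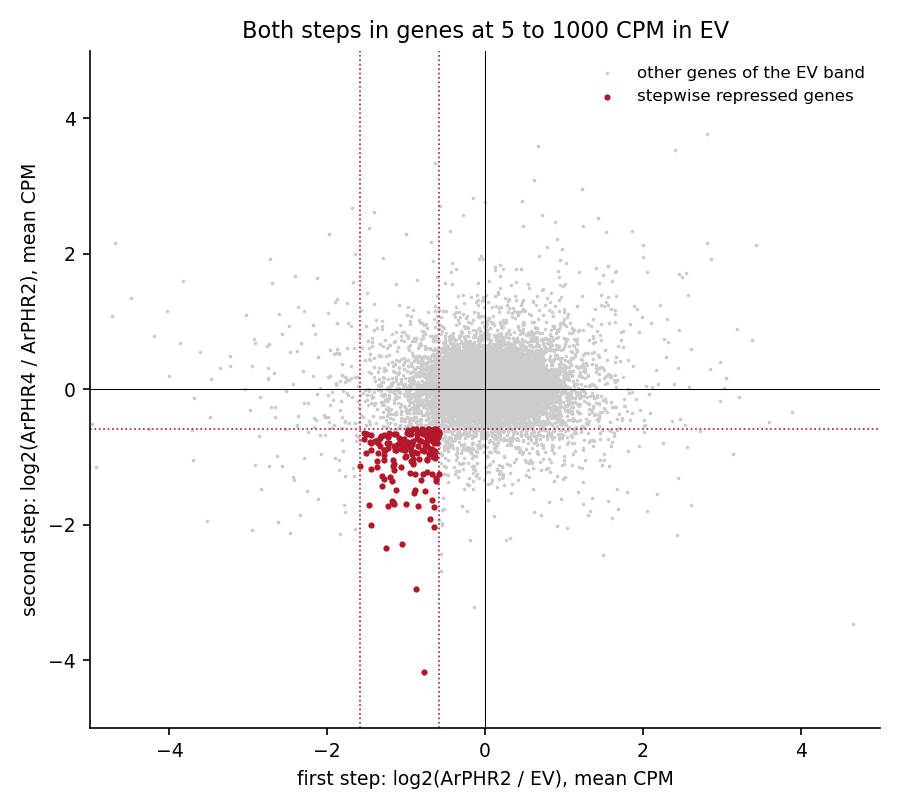
Each point is 1 of the 13686 genes at 5 to 1000 CPM in EV, with the log2 ratio of ArPHR2 to EV (first step, x axis) against the log2 ratio of ArPHR4 to ArPHR2 (second step, y axis), both from mean CPM. The 168 members (red) fill the lower left box cut out by the dotted limits of the rule, and 5 genes fall outside the axes.

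The members nearest to the limits had close neighbours outside them at all limits but one. The lowest EV level inside was 5.01 CPM, and the nearest gene outside that met both ratios was at 4.99 CPM. The highest EV level inside was 972 CPM, and the next gene that met both ratios stood at 2357 CPM. For the first step, the ArPHR2 to EV ratio reached 0.666 inside and 0.667 outside at the upper limit, and 0.335 inside and 0.332 outside at the lower limit. For the second step, the ArPHR4 to ArPHR2 ratio reached 0.666 inside and 0.667 outside.

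The members' median level was 3.99 CPM in ArPHR4, 7.26 CPM in ArPHR2 and 14.5 CPM in EV leaves. In EV leaves 54 members were under 10 CPM, 86 between 10 and 100 CPM, and 28 at 100 CPM or more. The share under 10 CPM was 32.1% of members and 17.2% of all genes in the EV band, whose median was 29.6 CPM, and the share at 100 CPM or more was 16.7% and 14.9%. The 10 most abundant members made up 53.6% of the members' summed level in ArPHR4, 53.1% in ArPHR2 and 51.4% in EV.

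As a group the members took 0.347% ± 0.00523 of all counts in ArPHR4 leaves, 0.648% ± 0.00212 in ArPHR2 leaves and 1.20% ± 0.0201 in EV leaves (SD, n = 3 each). Their summed level was 3438, 3444 and 3531 CPM in the ArPHR4 libraries. It was 6463, 6500 and 6464 CPM in the ArPHR2 libraries and 11819, 12098 and 12209 CPM in the EV libraries. Libraries of 1 group lay close together, and the groups stood far apart, as the choice of members makes them.

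The usual member lost nearly the same proportion at each step. The rule sets a minimum of 1.5-fold for both steps, so this likeness is partly set by the choice. The ArPHR2 level was a median 47.2% below EV, which is 1.90-fold, with quartiles of 39.4% and 55.5%. The ArPHR4 level was a median 45.1% below ArPHR2, which is 1.82-fold, with quartiles of 38.3% and 53.4%. From EV to ArPHR4 the median difference was 3.72-fold, with quartiles of 2.99-fold and 4.63-fold. The first step was the larger in 93 members and the second in 75. In CPM the first step took more than the second in 159 of 168 members, since it started from the higher level.

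The rule capped the first step and left the second open, and the second step had the longer tail. It was at least 2-fold in 54 members, at least 3-fold in 17 and at least 4-fold in 6, up to 18.1-fold. The first step was at least 2-fold in 69 members. Both steps were at least 2-fold in 26 members, and both were under 2-fold in 71. In ArPHR4 leaves 124 members were at least 3-fold below EV, 69 at least 4-fold, 32 at least 5-fold and 5 at least 10-fold.

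The size of the steps hardly differed with abundance, which is partly set by the choice, as the rule has the same ratio limits at every EV level. When the members were split by EV level into 3 sets of 56, the median difference of ArPHR4 below EV was 3.69-fold in the low set (5.01 to 10.3 CPM), 3.78-fold in the middle set (10.4 to 28.7 CPM) and 3.62-fold in the high set (29.4 to 972 CPM). In the low, middle and high sets, 24, 23 and 22 members were at least 4-fold below EV.

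**Figure D2:**
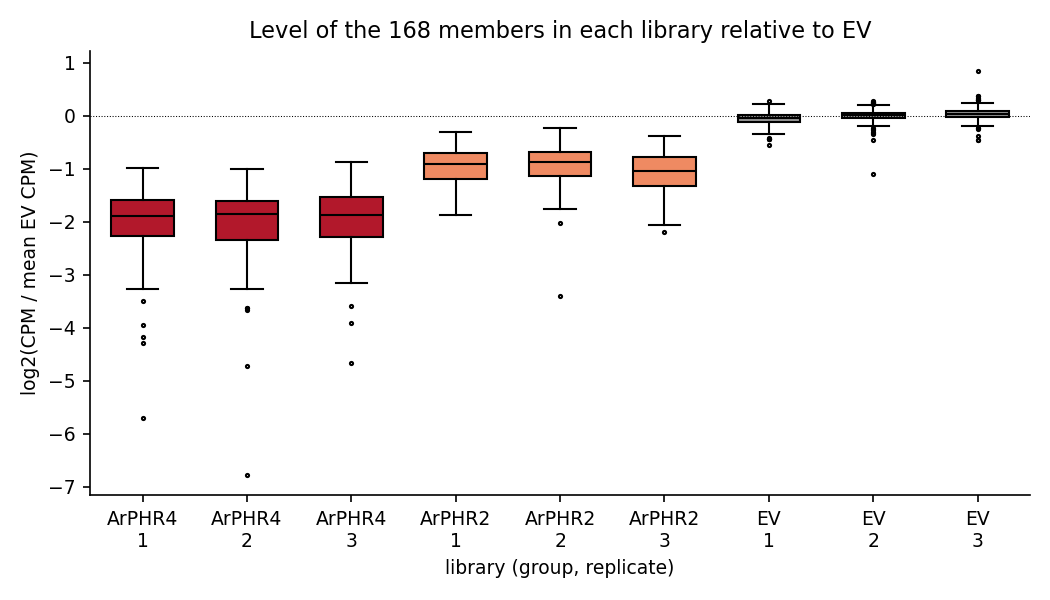
Boxes show, for each of the 9 libraries, the distribution over the 168 members of log2(CPM / mean EV CPM), with the median as a line, the quartiles as the box, whiskers to 1.5 times the box height and points beyond them. The ArPHR4 boxes lie lowest, the ArPHR2 boxes between them and EV, and the EV boxes around 0; the order follows from the rule.

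Among the most abundant members the steps were clear in every library. TRINITY_DN1252_c0_g1, the highest in EV leaves, was at 307, 309 and 330 CPM in the ArPHR4 libraries, at 576, 614 and 604 CPM in the ArPHR2 libraries, and at 931, 994 and 991 CPM in the EV libraries. It was 1.63-fold lower in ArPHR2 than in EV and 1.90-fold lower in ArPHR4 than in ArPHR2. TRINITY_DN386_c1_g1, the second highest, was at 211, 223 and 228 CPM in ArPHR4, at 368, 363 and 359 CPM in ArPHR2, and at 909, 918 and 908 CPM in EV. Here the first step was the larger, 2.51-fold, and the second was 1.65-fold. The groups did not overlap in either gene, and the gaps between groups were several times the range within a group.

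The fourth most abundant member belongs to the same assembly cluster as the second, and these were the only 2 members that shared a cluster number. It was at 194, 189 and 195 CPM in ArPHR4, at 484, 493 and 506 CPM in ArPHR2, and at 743, 772 and 765 CPM in EV. Its larger step was the second, so these related IDs split the decrease differently between the constructs. The third most abundant member had the smallest difference of all between ArPHR4 and EV, at 383 CPM in ArPHR4, 593 CPM in ArPHR2 and 890 CPM in EV on average, 2.33-fold.

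The lowest ArPHR4 levels relative to EV were in scarce transcripts. TRINITY_DN3702_c0_g2 was at 0.121, 0.239 and 0.249 CPM in ArPHR4, at 2.96, 4.85 and 3.21 CPM in ArPHR2, and at 6.85, 6.29 and 5.76 CPM in EV. The ArPHR4 values rest on 2, 4 and 4 counts, and the mean was 31.0-fold below EV, with 18.1-fold of that between ArPHR4 and ArPHR2. TRINITY_DN2075_c2_g2 was at 0.663, 0.835 and 0.686 CPM in ArPHR4, at 7.94, 3.85 and 5.08 CPM in ArPHR2, and at 11.2, 9.67 and 10.01 CPM in EV, 14.1-fold lower in ArPHR4 than in EV. In both genes the highest ArPHR2 library stayed below the lowest EV library.

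The largest second steps outside these were also in scarce genes. TRINITY_DN9210_c2_g1 was at 0.301, 0.477 and 0.686 CPM in ArPHR4, at 1.97, 2.43 and 3.02 CPM in ArPHR2, and at 4.97, 5.92 and 6.79 CPM in EV, 5.07-fold lower in ArPHR4 than in ArPHR2. TRINITY_DN17521_c0_g1 was at 1.15, 1.01 and 1.68 CPM in ArPHR4, at 6.21, 7.40 and 5.08 CPM in ArPHR2, and at 12.7, 13.1 and 12.9 CPM in EV, 4.86-fold lower in ArPHR4 than in ArPHR2. The 3 groups did not overlap in either gene. A member near the middle of the list by EV level was at 3.80, 4.30 and 3.43 CPM in ArPHR4, at 6.61, 7.28 and 6.96 CPM in ArPHR2, and at 13.0, 16.01 and 13.9 CPM in EV.

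**Figure D3:**
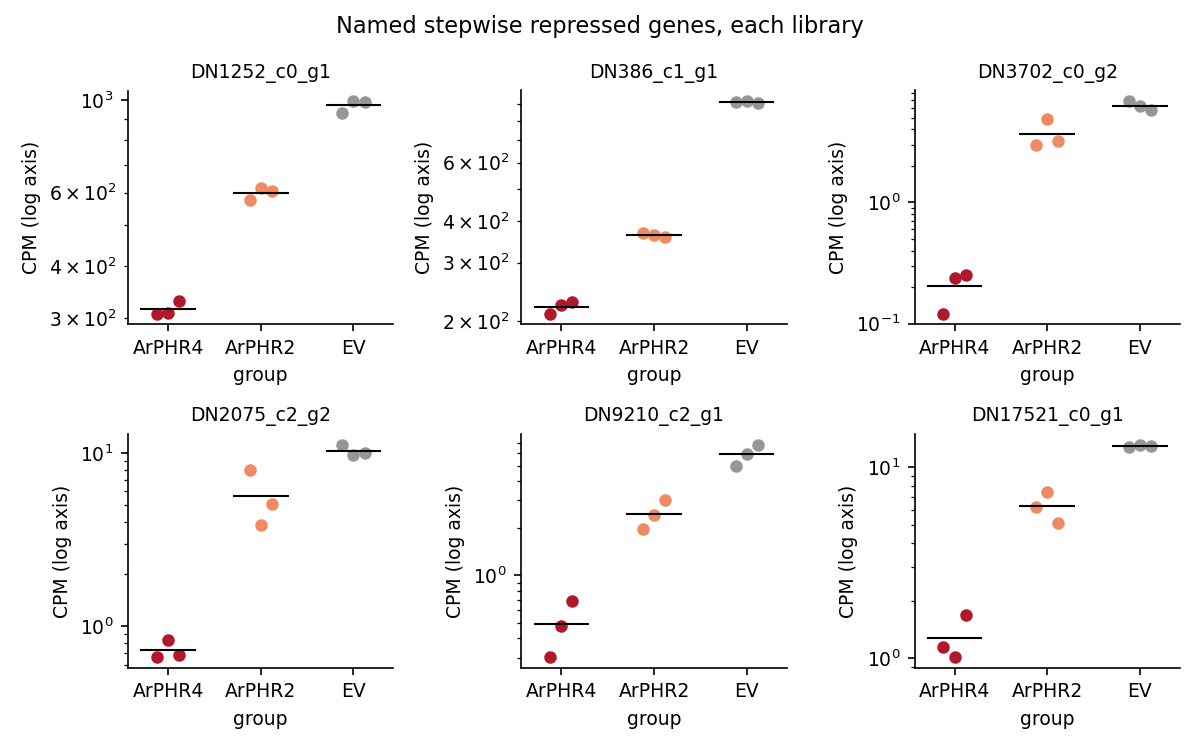
CPM on a log axis in each of the 3 ArPHR4, 3 ArPHR2 and 3 EV libraries for the 6 members named by rule, with the group mean as a line. The groups do not overlap in any of the 6 genes, and the spread between ArPHR2 libraries is widest in TRINITY_DN2075_c2_g2.

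Libraries of neighbouring groups overlapped in few members. All ArPHR4 libraries were below all ArPHR2 libraries in 158 of 168 members, against 18.9% of the 27275 genes that passed the expression filter. All ArPHR2 libraries were below all EV libraries in 166 members (22.4% of filtered genes), and all ArPHR4 libraries were below all EV libraries in 168 (24.5%). Both steps were free of overlap in 158 members (4.69% of filtered genes). The rule fixes most of this, so nothing is read from it. The 10 members with an overlap were all under 23.4 CPM in EV.

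One member was far more variable than the rest in all 3 groups. It was at 0.724, 0.119 and 2.74 CPM in ArPHR4, at 8.93, 1.24 and 4.23 CPM in ArPHR2, and at 9.64, 6.10 and 23.5 CPM in EV. Its coefficient of variation (SD over mean) was 115% in ArPHR4, 80.7% in ArPHR2 and 70.4% in EV, the highest of any member in each group. Its groups overlapped at both steps, and its place among the members rests on means of unlike libraries. A coefficient over 50% occurred in 1 member in ArPHR4, 2 in ArPHR2 and 1 in EV.

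The median coefficient of variation of the members was 16.6% in ArPHR4, 11.3% in ArPHR2 and 7.62% in EV, against 5.91%, 6.11% and 5.41% over all genes of the EV band. The members' counts were lower in the same order, with medians of 197, 367.5 and 718 counts over the 3 libraries of ArPHR4, ArPHR2 and EV. Relative to the variance that counting alone gives, the median variance between libraries was 2.20 in ArPHR4, 2.28 in ArPHR2 and 1.85 in EV for members. Over the band it was 2.09, 2.16 and 1.62, but the band was more abundant. Between the quartiles of the members' level in each group, it was 2.25, 2.09 and 1.41 for members. All band genes within those quartiles had 1.95, 1.91 and 1.51. At like level the members were thus above the band in ArPHR4 and ArPHR2 and below it in EV.

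Libraries of 1 group differed little over the members. The ArPHR2 library numbered 3 was the lowest of its group in 85 members, a median of 0.10 below the mean of the other ArPHR2 libraries on the log2 scale. The EV library numbered 1 was the lowest of its group in 84 members, a median of 0.06 below the others. Over all genes of the band the same deviations were -0.02 and -0.0036. The number of genes that met the rule was 161 to 179 when each library was left out in turn, and 137 to 159 of them were among the 168.

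The rule was then applied to the libraries of 2 numbers per group, and the levels were read in the libraries of the number left out. Without the libraries numbered 1, 177 genes were chosen, and 170 of them (96.0%) were in the order ArPHR4 below ArPHR2 below EV in the left-out libraries. Without number 2 it was 150 of 155 (96.8%), and without number 3 it was 146 of 163 (89.6%). Over all genes of the EV band 19.8%, 19.9% and 19.8% were in that order, and over all genes in the ArPHR2 window, chosen by the first step alone, 53.0%, 53.5% and 49.95%. Both steps reached 1.5-fold again in 99, 98 and 91 of the chosen genes (55.9%, 63.2% and 55.8%), against 1.51%, 1.66% and 1.496% of the band. The median first step in the left-out libraries was 1.79-fold, 1.87-fold and 2.18-fold, and the median second step 1.82-fold, 1.88-fold and 1.73-fold. Members made up 142 of the 177, 128 of the 155 and 130 of the 163 chosen genes. The shares are thus not those of the members alone, and every library also entered the choice of the members. As replicate libraries may be technical, the left-out libraries may not be independent of those used. The shares are given as a description only.

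The members were set in a fit of all genes with edgeR's quasi-likelihood test, and all 168 passed its filter. Against EV, 168 members were called lower in ArPHR4, where 25.9% of the 27275 tested genes were called lower, and 168 were called lower in ArPHR2, where the share was 21.7%. Between the constructs 166 members were called lower in ArPHR4 than in ArPHR2, against 16.2% of tested genes. These contrasts chose the members, so the calls are no further evidence. The 2 members without a call between the constructs stood at 1.43 and 1.63 CPM in ArPHR4, 2.25 and 2.84 CPM in ArPHR2, and 6.50 and 6.10 CPM in EV. The median log2 fold change of the members was -1.99 for ArPHR4 against EV, -0.99 for ArPHR2 against EV and -0.89 for ArPHR4 against ArPHR2, with median standard errors of 0.17, 0.16 and 0.17. Over all tested genes the medians were 0.0065, 0.013 and 0.00042. The 888 genes with the first step alone had medians of -0.87 for ArPHR4 against EV and -0.86 for ArPHR2 against EV.

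The ID format is that of the Trinity assembler, which numbers clusters of reads, components of a cluster and genes of a component. IDs of 1 component can share reads. Another ID was present in the component of 65 members (38.7%), against 34.8% of the genes in the EV band and 41.3% of the genes with the first step alone. When the CPM of all IDs of a component was summed, the sum still met both ratios for 34 of the 65, was lower at both steps for 53 and was not lower at both for the other 12. In 6 components the sum was as high in ArPHR4 as in EV or higher.

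The outcome followed how much of its component a member made up. The sum contains the member that the rule chose, so this is largely fixed in advance. Where the member held at least 90% of the component's EV level, 30 of 34 sums met both ratios, and the median ArPHR4 to EV ratio of the sum was 0.290. Where it held under 50%, 0 of 18 sums did, 7 were lower at both steps, and the median ratio was 0.918. Between these shares 4 of 13 sums met both ratios. Together, 137 members were alone in their component or made up at least 90% of it in EV leaves.

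TRINITY_DN3702_c0_g2, the member furthest below EV, was a minor ID of its component. The other ID there was at 116 CPM in ArPHR4, 106 CPM in ArPHR2 and 122 CPM in EV on average, against 0.203, 3.67 and 6.30 CPM for the member. The component sum was 116 CPM in ArPHR4, 110 CPM in ArPHR2 and 128 CPM in EV. TRINITY_DN2075_c2_g2 held nearly all of its component in EV, beside an ID at 0.871 CPM in ArPHR4, 1.32 CPM in ArPHR2 and 0.364 CPM in EV. Another component of its cluster held an ID at 189 CPM in ArPHR4, 241 CPM in ArPHR2 and 375 CPM in EV. TRINITY_DN386_c1_g1 also dominated its component, where the other ID was at 5.65, 7.93 and 11.0 CPM in ArPHR4, ArPHR2 and EV. The fourth most abundant member, in another component of that cluster, stood beside IDs that were higher in both overexpression groups. One was at 22.4, 24.6 and 13.8 CPM in ArPHR4, ArPHR2 and EV, and another at 41.5, 42.0 and 27.9 CPM. The ArPHR2 to EV ratio of that component's sum was 0.700, outside the limit of the first step. TRINITY_DN1252_c0_g1 and TRINITY_DN9210_c2_g1 were alone in theirs. Other components of the cluster of TRINITY_DN9210_c2_g1 held an ID at 82.8 CPM in ArPHR4, 192 CPM in ArPHR2 and 241 CPM in EV, and one at 4.99 CPM in ArPHR4, 0.137 CPM in ArPHR2 and 0 counts in EV.

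In some components another ID was higher where the member was lower. The clearest case, chosen after the values were seen, was the member at the lower EV limit, with 1.18 CPM in ArPHR4, 2.14 CPM in ArPHR2 and 5.01 CPM in EV. The main ID of its component was at 569 CPM in ArPHR4, 83.6 CPM in ArPHR2 and 83.6 CPM in EV. A second member, at 4.37, 10.8 and 24.8 CPM in ArPHR4, ArPHR2 and EV, stood beside an ID at 249, 113 and 62.9 CPM. Another, the member at the middle of the list by its ArPHR4 to EV ratio, was at 1.81 CPM in ArPHR4, 3.30 CPM in ArPHR2 and 6.74 CPM in EV. Beside it an ID with 6.404 CPM in ArPHR4 had 0.239 CPM in ArPHR2 and 0.0403 CPM in EV. Whether reads moved between IDs in these components was not tested.

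These other IDs were not used by the rule. Of 100 of them, 60 passed the filter. By edgeR's test 18 of the 60 (30%) were called lower and 13 (21.7%) higher in ArPHR4 than in EV, against 25.9% and 26.1% of all tested genes. In ArPHR2 against EV, 11 were called lower and 11 higher (18.3% each), against 21.7% and 22.6%. In ArPHR4 against ArPHR2, 16 (26.7%) were lower and 7 (11.7%) higher, against 16.2% and 16.3%. Their median log2 fold changes were -0.07, 0.02 and -0.08. In the components of 12 members, another ID was called higher in ArPHR4 than in EV.

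**Figure D4:**
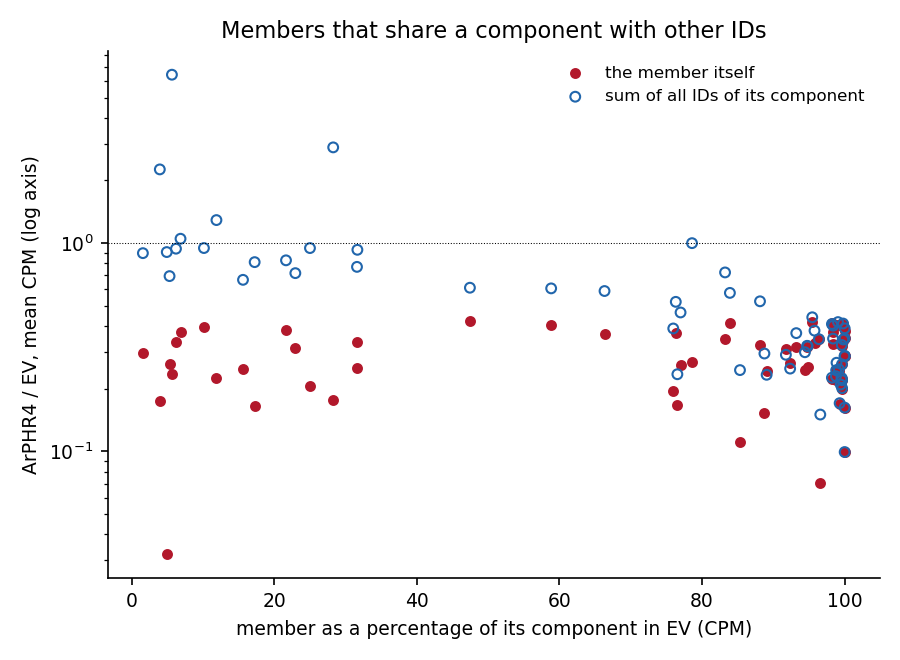
For the 65 members with another ID in their component, the ArPHR4 to EV ratio of mean CPM (log axis) is plotted against the member's percentage of its component in EV, for the member (filled) and for the sum of all IDs of the component (open). At 90% or more most open and filled points lie close together, while under 50% the sums lie above the members, with a median of 0.918.

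The deposited FPKM values, which count fragments per kilobase of transcript and per sequencing depth, gave a second view of the same libraries. Count over FPKM gives an implied effective length, in bases when the column total is taken as the depth. The median over members was 956 bases, against 1233 bases over the EV band and 1263 bases over the genes with the first step alone. The band was more abundant than the members. In the low, middle and high sets by EV level, the members' medians were 844, 1134 and 956 bases. All band genes in the same ranges of EV level had medians of 971, 1115 and 1413 bases, so the middle set was not shorter. An implied length under 500 bases was found for 49 members (29.2%), 10.9% of the band and 12.5% of the genes with the first step alone. Among genes of the ArPHR2 window, 30.6% of those under 500 bases and 13.3% of the others had the second step. The short members were of like abundance to the others, with median EV levels of 12.7 and 14.7 CPM, and of like median difference between ArPHR4 and EV, 3.62-fold and 3.73-fold. Of the short members, 18 (36.7%) shared a component with another ID, against 47 of the 119 others (39.5%). The median variance between libraries over that of counting was 2.24 in ArPHR4, 2.60 in ArPHR2 and 1.44 in EV for short members, and 2.19, 2.26 and 1.93 for the others.

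**Figure D5:**
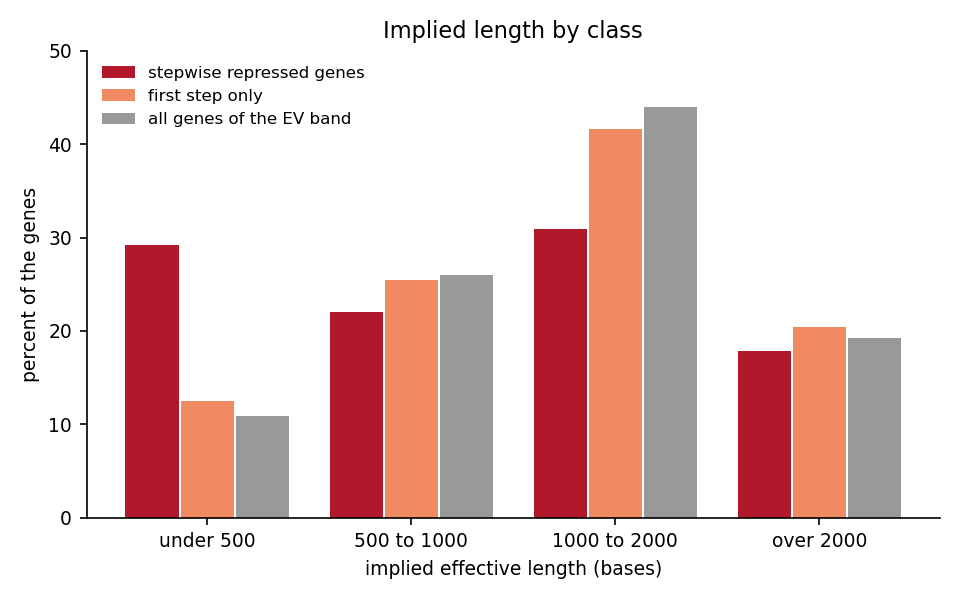
Bars give the percentage of genes in 4 classes of implied effective length (bases) for the 168 members, the 888 genes with the first step alone and the 13686 genes of the EV band. The members exceed both other sets in the class under 500 bases, 29.2% against 12.5% and 10.9%, and fall below them between 1000 and 2000 bases.

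On the FPKM scale, per length, the members' median level was 5.65 FPKM in ArPHR4, 10.2 FPKM in ArPHR2 and 23.5 FPKM in EV. The median difference was 3.72-fold for ArPHR4 below EV, 2.00-fold for ArPHR2 below EV and 1.72-fold for ArPHR4 below ArPHR2. All 168 were lower in ArPHR2 than in EV and 166 were lower in ArPHR4 than in ArPHR2, and 127 met both ratio limits in FPKM. With limma on log2(FPKM + 1), 105 members (62.5%) were called lower in ArPHR4 than in ArPHR2 and 1 higher, against 9.36% and 14.2% of all genes. On the counts, edgeR called 166 members lower and, as given above, a larger share of all genes in that direction. FPKM comes from the same libraries as the counts that chose the members, so these levels and calls are no further evidence.

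The implied length was not itself part of the rule, but its numerator, the count, was. A gene shortened at an unchanged FPKM has fewer counts and so meets the rule more easily. The share of shortened members can therefore be partly set by the choice of members. It was examined in genes with at least 30 counts and 1 FPKM in every library, 15309 genes with 114 members. The 54 members left out were the scarcer ones, with a median ArPHR4 level of 1.76 CPM against 6.96 CPM in those examined. They were also further below EV, with a median difference in ArPHR4 of 4.396-fold against 3.49-fold, since the minimum in every library also removes genes for a low ArPHR4 level. For ArPHR4 against EV, 6 of the 114 members (5.26%) had a limma call with a shift of 1.5-fold or more, against 1.01% of all genes examined. Of these 1 was longer and 5 were shorter, against 0.294% and 0.719% of all genes. For ArPHR2 against EV there was 1 such member (0.877%), against 0.51% of all genes, and for ArPHR4 against ArPHR2 there were 0, against 0.0392%. For that last comparison 3 members (2.63%) passed an adjusted p of 0.05 in limma at any size of shift, against 1.54% of all genes, and 33 (28.9%) an unadjusted p of 0.05, against 20.7% of all genes. The 3 calls were 0 with the replicate number as a block and 0 to 2 without single libraries. The count of 6 was 3 without the EV library numbered 2 and 3 to 7 over all libraries left out. At any size of shift, 23 members (20.2%) were called for ArPHR4 against EV and 33 (28.9%) for ArPHR2 against EV, against 20.1% and 24.5% of all genes. These counts depended on how the libraries were centred: with each library centred on its median they were 67 (58.8%) and 58 (50.9%), against 51.8% and 43.2% of all genes. Without single libraries they were 16 to 28 and 21 to 38, the 21 without the EV library numbered 2. The median shift over the members was 0.0059 and 0.0057 on the log2 scale.

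Of the shortened members, TRINITY_DN11711_c1_g1 changed most. Its implied length was 2858, 1919 and 1088 bases in ArPHR4, 2528, 3121 and 3670 bases in ArPHR2 and 4521, 4140 and 5526 bases in EV. The log2 shift was -1.38 for ArPHR4 against EV (limma adjusted p = 0.032). It was at 4.52 CPM in ArPHR4 and 7.31 CPM in ArPHR2, against 11.97 CPM in EV, and its FPKM was 2.60 ± 0.970 in ArPHR4, 2.40 ± 0.427 in ArPHR2 and 2.55 ± 0.310 in EV (SD, n = 3 each). This member was thus lower per library and not per length.

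TRINITY_DN2257_c1_g1 was shortened too, to 868 ± 152 bases in ArPHR4 and 1123 ± 74.8 bases in ArPHR2, against 1588 ± 122 bases in EV (SD, n = 3 each). The log2 shift was -0.89 for ArPHR4 against EV (limma adjusted p = 0.0038). It was at 22.8 FPKM in ArPHR4, 26.9 FPKM in ArPHR2 and 29.5 FPKM in EV, a far smaller difference than in CPM, where it was at 19.3, 29.96 and 46.6 CPM in ArPHR4, ArPHR2 and EV.

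Both lengthened members had very small implied lengths, at which FPKM is high for few reads. TRINITY_DN30916_c0_g1 was at 49.3 ± 7.57 bases in ArPHR4 and 38.7 ± 3.17 bases in ArPHR2, against 28.4 ± 2.84 bases in EV (SD, n = 3 each), a log2 shift of 0.78 for ArPHR4 against EV (limma adjusted p = 0.0073). TRINITY_DN26486_c0_g2 was at 34.1 ± 1.23 bases in ArPHR4 and 35.2 ± 2.32 bases in ArPHR2, against 22.8 ± 0.910 bases in EV (SD, n = 3 each), and was called for ArPHR2 against EV (log2 shift 0.59, limma adjusted p = 0.0017). Both were lower in FPKM as in CPM, at 132 and 117 FPKM in ArPHR4, 382 and 226 FPKM in ArPHR2, and 827 and 546 FPKM in EV.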

How the data were processed

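Counts and FPKM per assembled gene were taken from 1 table; both units are named per the file headers. The counts deposited by the authors are whole numbers, and the FPKM values deposited by the authors have been scaled by transcript length and depth. How the transcriptome was assembled and reads were assigned is not stated in the labels or headers. No per-library column was left out. Members and comparison sets were chosen with earlier results of these data known. CPM used column totals. edgeR 4.0.16 (R 4.3.3) was fitted to the counts (TMM scaling, 1 quasi-likelihood model of 3 group means over 9 libraries, filter by group, 27275 genes), and log2(count / FPKM), centred per library, with limma 3.58.1; p-values were Benjamini-Hochberg adjusted over all genes. The edgeR and limma procedures were each run on simulated data, with known changes given to randomly drawn genes in ArPHR4 alone. Stepwise changes were not simulated. Alternatives included DESeq2 1.42.0, upper-quartile scaling and limma on log2(FPKM + 1). IDs were named by rule: the 2 members highest in EV, the 2 lowest in ArPHR4 relative to EV, the next 2 lowest relative to ArPHR2, and the 2 most lengthened and 2 most shortened. The component analysis, the most variable member and the short class were chosen after the values were seen. Gene lists could not be applied, as IDs carry no names.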

Additional observations from a re-analysis of the deposited data

How the results depend on the processing

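The number of members was 210 with TMM-scaled and 240 with upper-quartile-scaled CPM (164 and 162 of them among the 168), 155 with FPKM ratios, 145 with ratios of component sums (an alternative chosen after seeing the data), 114 with an EV minimum of 10 CPM, 54 with a second step of at least 2-fold and 161 to 179 without single libraries. Members called lower between the constructs numbered 151 to 168 under 14 alternatives, but 105 and 108 with limma on log2(FPKM + 1) and log2(FPKM + 0.1), where calls of lower over all genes were also fewer, 2554 and 2516 against 4418. Over all tested genes, 6.29% to 19.1% were called lower under those 14 alternatives. Against EV, members called lower numbered 165 to 168 for ArPHR4 and 141 to 168 for ArPHR2. The shares of all tested genes were 9.5% to 28.8% and 7.37% to 22.8%. No median log2 fold change of the members turned its sign. These contrasts chose the members, so the calls and signs are no further evidence.

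Members with a length shift of at least 1.5-fold for ArPHR4 against EV were 6 with centring on library medians, 3 with a minimum of 100 counts and 5 FPKM, and 3 to 7 without single libraries. For ArPHR2 against EV they were 2, 0 and 0 to 2 under these alternatives. For ArPHR4 against ArPHR2 they were 1, 0 and 0 to 1. Members examined numbered 114, 53 and 114 to 123, among 15309, 11468 and 15339 to 15425 genes. Of all genes examined, 171, 116 and 134 to 158 shifted for ArPHR4 against EV. The counts were 90, 53 and 61 to 82 for ArPHR2 against EV, and 10, 3 and 2 to 8 for ArPHR4 against ArPHR2. The cause was not tested. No strong pairing by library number was seen: the deviations of same-numbered libraries correlated with r of -0.0029 to 0.036. For libraries of different numbers r was -0.051 to 0.030. With the replicate number as a block, 168, 168 and 167 members were called lower for ArPHR4 against EV, ArPHR2 against EV and ArPHR4 against ArPHR2, and 4, 1 and 0 shifted in length. In ArPHR4 the scarcest members rest on as few as 2 counts per library.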
